A study of Mus musculus with 7 samples.

Results

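Adipose neurospheres were compared with bowel neurospheres of the same 2-stage culture, by the rule that sets the labelled library Wnt1-tdT neurospheres (Adipose) against Wnt1-tdT neurosphere M2 (small bowel). These are 2 of 7 RNA sequencing libraries, and 13440 of 27179 listed genes reached 1 CPM (reads of a gene scaled to the total of its library) in either of them and were compared. Both libraries came from Wnt1-Cre;tdTomato mice, in which Cre under the Wnt1 promoter switches on the R26R-tdT reporter, so that tdTomato marks cells with a history of Wnt1 promoter activity and not a cell type. Posterior subcutaneous fat pads, or the smooth muscle and myenteric plexus layer of the small bowel, were digested with collagenase and dispase, and the cells were grown as mixed spheroids for 10 days. The tdTomato-positive cells were then sorted and grown as neurospheres for a further 10 days, in both stages with 20 ng/mL each of basic fibroblast growth factor and epidermal growth factor, plus heparin. RNA came from about 50000 cells per library, pooled equally from 3 mice aged 1 month, 2 female and 1 male. The other bowel libraries were fresh cells, M1 neurospheres (sorted before their 10 days of culture) and mixed spheroid cells sorted by tdTomato into positive and negative, and fresh adipose cells were the remaining library. Both fresh libraries are labelled Primary Wnt1-tdT cells, and so are not whole tissue by their labels.

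The neural crest gives rise to the neurons and glia of the bowel wall and to the Schwann cells that follow nerves into skin and fat. Enteric crest cells are known for autonomic transcription factors, the receptor tyrosine kinase RET and anterior Hox codes, whereas crest cells of the head also form bone, cartilage and pericytes. Cultured as floating neurospheres, such cells divide and keep some ability to form neurons and glia.

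With 1 library per tissue there is no replicate check, no test and no p-value, and the intervals cover counting error alone. Higher and lower are used for genes whose scaled reads differed at least 4-fold between adipose and bowel neurospheres, provided that the 95% interval of that ratio from counting lay beyond 2-fold. The adipose library held 61606456 reads and 12401 genes at 1 CPM or more, and the bowel library held 65301500 reads and 12853 such genes. Called higher were 716 genes (5.33% of those compared) and called lower 1168 (8.69%), together 14.0%, and 11556 passed in neither direction. The counts given for gene lists are to be read beside these shares. The higher genes took 8.43% of all adipose reads and the lower genes 6.18% of all bowel reads. At 100 CPM or more in the higher library stood 137 of the higher and 127 of the lower genes. The median log2 ratio (adipose over bowel) of all compared genes was -0.01, and scaling by total reads alone shifted it by -0.12. Just inside the 1 CPM limit lay Baiap2l2, with 1.01 against 0.490 CPM, and just outside it Rab44, with 0.0487 against 0.995 CPM. Under a 2-fold rule 1742 genes were higher and 2338 lower, and under an 8-fold rule 387 and 700. A limit of 5 CPM left 474 and 742. With M1 neurospheres as the bowel library 2001 genes were lower, and with tdTomato-positive spheroid cells 474 were higher.

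**Figure D1:**
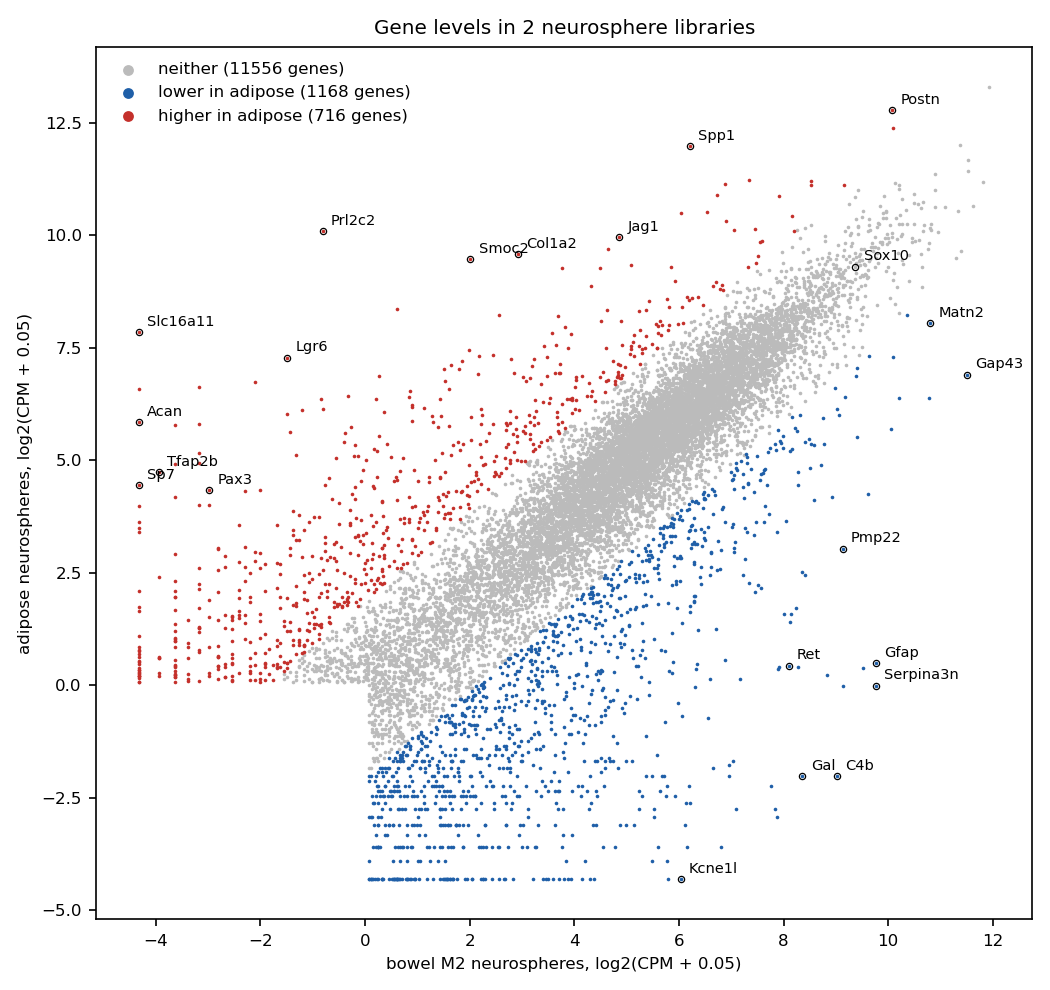
Level of each compared gene in bowel M2 neurospheres (horizontal axis) and adipose neurospheres (vertical axis), both as log2(CPM + 0.05), with genes called higher in adipose in red and lower in blue. The 716 higher and 1168 lower genes lie on either side of the diagonal band, while Sox10 lies within it.

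The label, a history of Wnt1 promoter activity, was checked against 4 genes of crest cells. The crest factor Sox10 had 632 CPM in adipose and 661 in bowel neurospheres, and Foxd3, another crest factor, had 81.3 and 90.1. The neuregulin receptor Erbb3 had 235 and 457 CPM, and the neurotrophin receptor Ngfr 490.3 and 365. Each of these genes stood above 80 CPM on both sides. Markers of other cell types were mostly low, with exceptions that are treated further below. Fibroblast genes summed to 9337 CPM in adipose and 3223 in bowel neurospheres, and smooth muscle and pericyte genes to 736 and 601. Genes of interstitial cells of Cajal summed to 437 and 316 CPM. None of 9 mesothelial and 10 epithelial genes reached 1 CPM in either library, with summed levels of 0.357 against 0.383 and 1.04 against 0.934 CPM. The 13 macrophage genes summed to 32.6 and 34.7 CPM with none of 9 compared called (14.0% of all compared genes were), and their defining member Adgre1 had 1.09 and 2.11. Of 13 adipocyte genes 5 were compared and none called, and Adipoq, which defines fat cells, had 0 reads in both. Lymphocyte genes summed to 2.55 and 1.73 CPM, where Trac, a T cell receptor gene, was called higher at 1.49 CPM against 1 read. Mast cell, melanocyte and skeletal muscle genes had no called member among 1, 2 and 2 compared. Of 12 endothelial genes 5 were compared, with Kdr, Egfl7 and Ptprb lower and Esam higher, while Cdh5, which defines endothelium, had 0.0162 and 0 CPM and the 12 genes summed to 10.2 and 70.0.

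Promoter sequences are shown for 4 genes that set the tissues far apart: Acan and Spp1, higher in adipose neurospheres, and Gal and Gfap, higher in bowel neurospheres. RefSeq promoters (build GRCm38.p6) were matched by gene identifier for 34 of the 49 named genes, and the 250 bases before the annotated start are printed 5′ to 3′ on the strand of the gene. Capitals mark matches to the E-box CANNTG, the core bound by basic helix-loop-helix factors, searched on both strands together with the TFAP2 motif GCCNNNGGC. The windows are chr7:79052976-79053225 (plus strand) for Acan, chr5:104434861-104435110 (plus) for Spp1, chr19:3414545-3414794 (minus) for Gal and chr11:102897201-102897450 (minus) for Gfap.
Acan: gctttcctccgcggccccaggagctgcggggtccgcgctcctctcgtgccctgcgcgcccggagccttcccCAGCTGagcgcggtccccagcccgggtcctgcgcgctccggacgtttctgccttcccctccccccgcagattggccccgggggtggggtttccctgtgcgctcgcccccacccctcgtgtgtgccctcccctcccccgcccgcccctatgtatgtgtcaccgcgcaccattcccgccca
Spp1: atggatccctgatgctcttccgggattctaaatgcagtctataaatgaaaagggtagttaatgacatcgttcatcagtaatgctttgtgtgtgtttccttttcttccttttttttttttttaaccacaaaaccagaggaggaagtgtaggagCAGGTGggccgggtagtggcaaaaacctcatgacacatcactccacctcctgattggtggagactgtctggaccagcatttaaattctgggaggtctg
Gal: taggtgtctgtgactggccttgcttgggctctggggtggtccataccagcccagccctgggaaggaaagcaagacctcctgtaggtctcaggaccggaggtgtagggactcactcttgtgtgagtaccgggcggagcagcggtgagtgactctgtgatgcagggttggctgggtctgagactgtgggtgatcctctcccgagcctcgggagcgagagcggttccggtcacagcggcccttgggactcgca
Gfap: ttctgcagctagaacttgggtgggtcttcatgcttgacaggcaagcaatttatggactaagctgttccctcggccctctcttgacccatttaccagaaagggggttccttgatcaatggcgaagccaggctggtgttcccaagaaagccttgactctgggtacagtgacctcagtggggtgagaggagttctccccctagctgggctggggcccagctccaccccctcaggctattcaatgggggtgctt
Acan and Spp1 each held 1 E-box, Gal and Gfap held none, and none of the 4 windows held the TFAP2 letters. Across all 27025 RefSeq promoters searched, 66.0% held an E-box and 13.6% the TFAP2 letters. Among genes compared the E-box shares were 59.5% of 526 promoters of higher genes, 63.7% of 854 of lower genes and 56.2% of 10419 in all, and the TFAP2 shares were 21.3%, 19.3% and 20.8%. The 6-letter Sox motif ACAAAG was also found once in the Spp1 window and is left in lower case. A match of letters is a description and shows no binding.

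The genes furthest toward adipose neurospheres were a mixed set of transporters, junction proteins, hormones and developmental regulators. Slc16a11, a member of the monocarboxylate transporter family (chromosome 11, 70213695 to 70216414, GRCm38), had 231 CPM in adipose and 0 reads in bowel M2 neurospheres, a difference of at least 5468-fold against a floor of 3 reads. It was below 1 CPM in all 6 other libraries, fresh adipose cells included (0.281 CPM). The gap junction gene Gja3 had 15.9 CPM against 0 reads, at least 375-fold higher. Prl2c2, which encodes the prolactin-related hormone proliferin, had 1100.4 against 0.521 CPM (log2 ratio 11.07, 95% interval from counting 10.68 to 11.70), and its near-identical neighbour Prl2c3 had 98.6 against 0.0613. Reads of these copies cannot be assigned with certainty, so both values are uncertain. Asgr1, a subunit of the asialoglycoprotein receptor, had 56.3 against 0.0613 CPM, and the forkhead factor Foxi2 had 12.2 CPM against 0 reads, at least 289.6-fold. Cdh15, the cadherin of muscle precursors, had 55.0 CPM against 2 reads (0.0306 CPM; log2 ratio 9.82, interval 9.08 to 13.98), while the muscle factors Myod1, Myf5, Myog and Pax7 had 0 reads in both. The higher genes with the most reads were Postn, the matrix protein periostin, with 7036 against 1077 CPM, Col18a1 with 5349 against 1092, and Spp1, osteopontin, with 4073 against 74.1. Next came Tm4sf1, a tetraspanin-like membrane protein (2413 against 162 CPM), the integrin ligand Edil3 (2356 against 370.3), Thbs2 (2252 against 118) and the protease Adamts1 (2239.9 against 573). Adamts1 had 2513 CPM in tdTomato-positive spheroid cells of the bowel, so its direction turned against that library (log2 ratio -0.16). The annexin Anxa1 (2213 against 366 CPM) and the secreted Angptl2 (1887 against 239.8) were also among the 10 higher genes with the most reads. In the tdTomato-positive spheroid cells of the bowel, Postn, Col18a1, Edil3 and Thbs2 had 2801, 3110, 768 and 823 CPM, closer to the adipose level than M2 neurospheres were. Spp1, Tm4sf1, Anxa1 and Angptl2 had 429.8, 68.6, 457 and 742 CPM there.

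**Figure D2:**
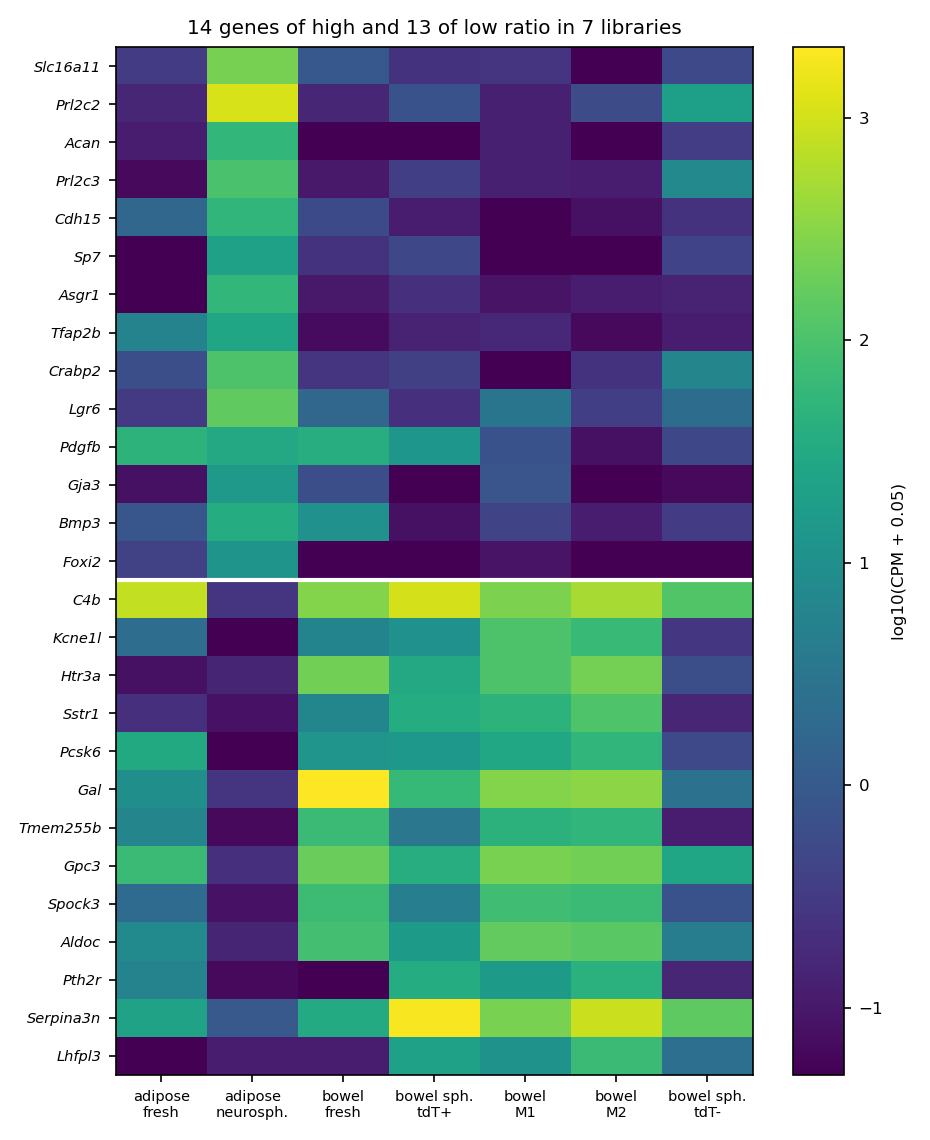
Levels as log10(CPM + 0.05), by colour, in all 7 libraries of 14 genes among the 15 highest log2 ratios and, under the white line, 13 among the 15 lowest. The upper genes are bright in adipose neurospheres and mostly dark elsewhere (Slc16a11 is below 1 CPM in the other 6 libraries), and Gal and Htr3a are bright across the tdTomato-positive bowel libraries.

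On the opposite side stood a peptide, receptors and secreted proteins. C4b, a complement component, had 0.195 against 519.9 CPM (log2 ratio -11.04, interval -12.21 to -10.46), although fresh adipose cells had 796 CPM. C4b and Serpina3n, a secreted protease inhibitor with 0.941 against 869.6 CPM, belong to families with near-identical copies, and their values are uncertain to that extent. Kcne1l, an accessory subunit of potassium channels, and Pcsk6, a proprotein convertase, had 0 reads in adipose against 65.3 and 55.6 CPM in bowel, at least 1234-fold and 1049.9-fold lower. The somatostatin receptor Sstr1 had 2 reads (0.0325 CPM) against 112 CPM (log2 ratio -10.62, interval -14.68 to -9.78). Pth2r, a receptor of the parathyroid hormone family, had 1 read against 44.9 CPM, and Tmem255b, a membrane protein, 1 read against 55.0. In fresh cells Pth2r was called in the opposite direction, with 5.83 CPM in adipose and 0 in bowel, and Pcsk6 had 32.6 and 12.8. The heparan sulfate proteoglycan Gpc3 had 0.162 against 218 CPM and Spock3, a testican, 0.0325 against 71.1. Lhfpl3 had 0.0649 against 69.6 CPM. The most reads on the bowel side went to Gap43, a growth cone protein, with 119.6 against 2917 CPM, the matrix protein Matn2 with 264 against 1788, and Itm2a with 83.0 against 1767. The tetraspanin Cd9 had 302 against 1322 CPM, at the edge of the rule with a log2 ratio of -2.01.

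Several transcription factors of the enteric lineage had few or no reads in adipose neurospheres. In a bulk library, fewer cells of a type and less RNA per cell cannot be told apart. Tlx2 and Insm1, factors of autonomic and neuroendocrine cells, had 0 reads against 15.3 and 10.5 CPM, at least 289-fold and 199-fold lower. Tlx2 had 0.867 CPM in M1 neurospheres and 2.34 in tdTomato-positive spheroid cells, and 0.219 against 27.0 CPM in fresh adipose and bowel cells. Insm1 went the other way in fresh cells, with 6.26 CPM in adipose against 0.433 in bowel. Hand2, an autonomic and cardiac factor, had 0.162 against 73.2 CPM (log2 ratio -8.43, interval -9.76 to -7.82), with 60.7 in M1 neurospheres, 31.7 in tdTomato-positive spheroid cells and 0.0937 against 19.2 in fresh cells. Etv1 had 12.4 against 198 CPM and Sox11, a factor of immature neurons, 0.974 against 9.72. Toward adipose stood Gata2, a factor of sympathetic and blood cells, with 34.7 against 0.352 CPM, together with Ebf1 and Meis2. In all, 18 of 24 enteric and autonomic factors were compared, and 3 were higher, 7 lower and 8 neither, with a median log2 ratio of -0.87.

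Early crest factors were split. Tfap2b had 26.7 CPM in adipose neurospheres and 1 read in bowel, and it had 5.70 against 0.0173 CPM in fresh cells. Pax3 had 20.1 against 0.0766 CPM, and Tfap2a had a log2 ratio of 2.62. Snai1 and Msx2 were higher at low levels of 3.07 and 2.74 CPM, and Id3, an inhibitor of helix-loop-helix factors that responds to BMP signals, had 933 against 192. Msx1, Sox8 and Mycn were lower, with 6.14, 16.1 and 6.74 CPM in bowel. Of 26 crest factors 20 were compared, 6 higher, 3 lower and 11 neither, with a median log2 ratio of 0.80. Id1, Id2, Snai2 and Sox9 were among the last, with log2 ratios of 1.03, 0.91, 1.68 and 0.87.

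Genes that record position along the body and limb differed by group. Of 15 Hox genes of groups 1 to 5, the anterior ones, 12 were compared, none was higher and 7 were lower (median log2 ratio -2.73). Hoxa2 had 1.09 against 14.9 CPM and Hoxb5 0.649 against 10.8, whereas Hoxb2 had 7.97 and 9.85. Of 24 genes of groups 6 to 13 only 8 were compared, 4 higher and 1 lower, at levels under 3 CPM in both libraries except for Hoxb7 with 26.4 and 16.1 CPM and Hoxb6 with 6.95 CPM in bowel. Their median of 2.02 turned to -1.06 at a limit of 5 CPM, which only Hoxb6 and Hoxb7 reached. Among 28 positional and limb factors 11 were compared and 5 were higher, namely Foxf2, Foxc1, En1, Tbx15 and Tbx18, each under 5 CPM, and Eya1 was lower. This median of 1.60 was -0.75 at a limit of 5 CPM, which only Prrx1 reached. Against M1 neurospheres it was -2.11, where further members such as Nkx2-3 and Foxf1 reached 1 CPM.

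Glial genes passed the rule in both directions, 8 lower and 4 higher in adipose neurospheres of 26 compared. Gfap, the intermediate filament of astrocytes and enteric glia (chromosome 11, 102887336 to 102897200), had 1.35 against 874 CPM, next to 236 in M1 neurospheres and 1108 in tdTomato-positive spheroid cells. The prosaposin receptor Gpr37l1 had 1.12 against 453 CPM and Cmtm5 1.06 against 143. The calcium-binding S100b had 26.8 against 311 CPM and the ectonucleotidase Entpd2 71.0 against 521. Toward adipose, Kcna1, a voltage-gated potassium channel, had 318 against 37.8 CPM, Gfra3, the artemin coreceptor, 83.5 against 11.5, and the connexin Gjb1 3.30 CPM against 0 reads. Of the 28 listed, 14 passed in neither direction, among them Cdh19 with 977 and 1407 CPM (list median -0.46).

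Of 11 compared genes best known from the oligodendrocyte lineage of the brain, 8 were lower in adipose neurospheres and none higher (median -3.17). Gpr17, a receptor of committed oligodendrocyte precursors, had 0.941 against 561 CPM (log2 ratio -9.05, interval -9.50 to -8.73), and 698 in M1 neurospheres. The lineage factor Olig2 had 2 reads against 27.3 CPM, and Olig1 had 8.16 against 132. The phosphatase Ptprz1 had 29.8 against 423 CPM and the proteoglycan Bcan 0.666 against 24.8. In fresh bowel cells Olig1 and Olig2 had 0.104 and 0.243 CPM, so these factors were high in the cultured bowel library and not in the fresh one. The 16 listed genes also include Sox10 and the proteoglycan Cspg4, which passed in neither direction, Cspg4 with 103 and 191 CPM, and these made up most of the list's summed 779.5 CPM in adipose neurospheres. Myelin genes of Schwann cells went both ways, with 4 higher and 5 lower of 16 compared (median -0.41). Pmp22 had 8.13 against 559 CPM, Mbp 10.6 against 158 and the lipid enzyme Ugt8a 0.990 against 9.97, whereas Gldn, the gliomedin of nodes of Ranvier, had 1112 against 133, Egr2, the myelination factor, 19.7 against 2.97, and Pmp2 9.32 against 0.368.

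Neuronal genes were mostly lower in adipose neurospheres. Of 29 pan-neuronal genes 22 were compared, 12 lower and 1 higher (median -2.23). The RNA-binding Elavl4 had 0.195 against 125 CPM, the vesicle proteins Chga and Snap25 had 0 reads in adipose, the latter against 6.34 CPM in bowel, and Map2 had 30.8 against 157. Uchl1, a ubiquitin hydrolase abundant in neurons, was the higher member with 502 against 105 CPM. Among 30 neuropeptides 12 were compared, 6 lower and 1 higher. Gal, galanin (chromosome 19, 3409915 to 3414544), had 0.195 against 328 CPM, Npy 6.02 against 46.2, Vip 0.0649 against 7.72 and Cartpt 0.130 against 4.26. The enkephalin precursor Penk had 132 and 133 CPM, and the natriuretic peptide Nppb 1.92 CPM against 2 reads.

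Receptors for transmitters were lower more often than higher. Of 36 nicotinic, serotonin and purine receptors 20 were compared, 10 lower and 3 higher (median -2.47). Htr3a had 0.0974 against 228 CPM and its partner Htr3b 0 reads against 5.82, and the nicotinic subunits Chrna3, Chrna5 and Chrnb4 had 60.4, 11.2 and 21.0 CPM in bowel against at most 0.260 in adipose. The purine receptors P2ry1 and P2ry12 had 7.92 and 2.91 against 112 and 29.5 CPM, and the higher members were Htr2a, Htr2b and P2rx5. Glutamate, GABA and glycine receptors had 9 lower and 1 higher of 18 compared, with Grik2 at 6.93 against 153 CPM and Gria4 at 1.38 against 59.4. Some transmitter genes ran the other way. Gad2, which makes GABA, had 40.3 against 0.827 CPM (and 18.0 in tdTomato-positive bowel spheroid cells), and Slc17a8, a vesicular glutamate transporter, 10.5 CPM against 0 reads, at least 249-fold. Bche, butyrylcholinesterase, had 2.94 against 259 CPM, and that list held 3 higher and 6 lower of 12 compared.

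Among the neural lists, potassium channels held the most lower genes by count, though not by share. Pan-neuronal genes held 12 lower of 22 compared. Of 63 genes 40 were compared, 20 lower, 6 higher and 14 neither (median -1.98). The delayed rectifiers Kcna6 and Kcna2 had 159 and 28.5 against 794 and 136 CPM, and Kcnn2 had 0.276 against 25.2. The calcium-activated Kcnn4 had 153 against 9.33 CPM, the inward rectifier Kcnj12 48.9 against 5.08, and Kcna4 119 against 28.5. Channels for other cations were balanced, with 6 higher and 6 lower of 27 compared (median -0.20). Among the higher ones was the mechanosensitive and thermosensitive Trpv4 (41.3 against 3.63 CPM), and among the lower ones Scn7a (5.54 against 35.6).

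Adhesion molecules of neural tissue were mostly lower where they passed the rule. Among 46 immunoglobulin and synaptic adhesion genes 32 were compared, 15 lower and 1 higher, Igsf9b (median -1.72). Chl1, a close relative of the axonal protein L1, had 83.4 against 1185 CPM, Negr1 11.4 against 129 and the neuroligin Nlgn3 0.130 against 39.2, while L1cam had 267 and 478. Cadherins held 7 lower members of 27 compared, of which most reads went to Pcdh8 (4.42 against 191 CPM) and Cdh13 (0.714 against 62.8), and Cdh15 as the 1 higher member. Axon guidance genes went both ways, with 12 higher and 17 lower of 65 compared (median -0.23). Sema3g had 30.7 against 0.0613 CPM and the ephrin receptor Epha7 178 against 39.4, and Nrp2, Plxna2 and Plxnd1, receptors for class III semaphorins, were higher as well. Sema3a had 9.01 against 134 CPM, Sema3d 3.90 against 77.7 and Slit2 10.9 against 74.3, and the Slit receptors Robo1 and Robo2 were lower, while Slit3 was higher with 82.5 CPM and a log2 ratio of 2.62.

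**Figure D3:**
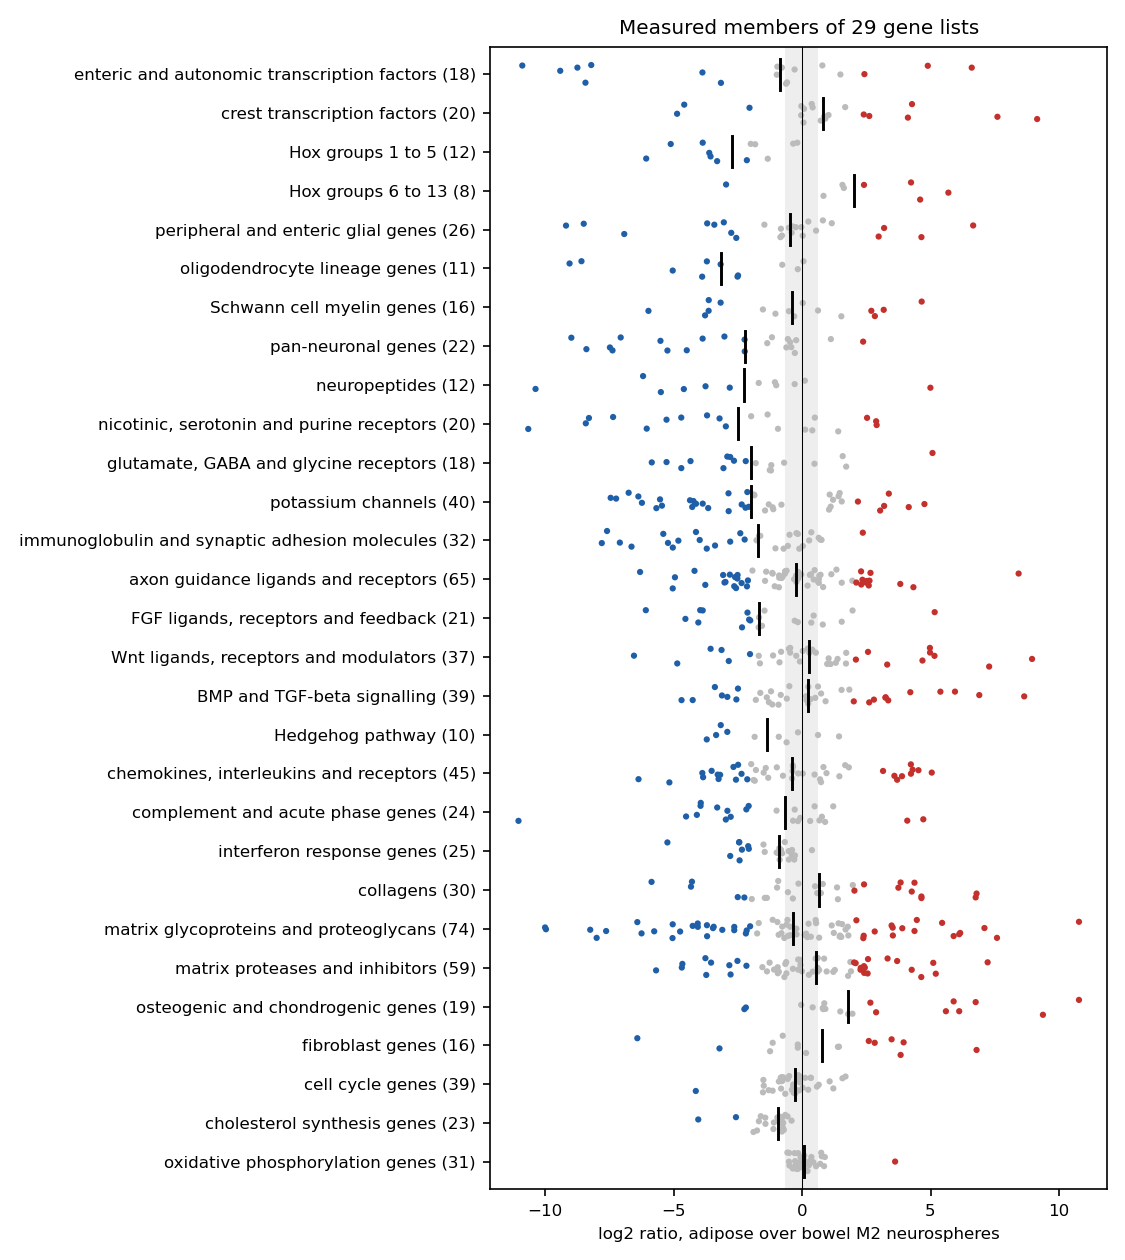
Log2 ratio of each compared member of 29 gene lists, with the number compared in brackets, red for higher and blue for lower in adipose neurospheres, a black bar at the list median and a grey band from the lower to the upper quartile of all compared genes (-0.63 to 0.58). Oligodendrocyte, pan-neuronal, potassium channel and transmitter receptor lists lie to the left, osteogenic genes to the right with a median of 1.79, and oxidative phosphorylation genes close to 0.

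Among chemokines, interleukins and their receptors, 9 of 45 compared were higher and 13 lower (median -0.39). Some of them belong to the interleukin-6 family, which signals through the shared receptor gp130. The cytokine Clcf1 had 27.1 against 1.53 CPM, leukemia inhibitory factor Lif 82.2 against 2.66, and Il11 24.5 against 1.12. The LIF receptor Lifr had 1.74 against 17.5 CPM. Il6st, which encodes gp130, had 285 and 611 CPM, and Il11ra1 11.3 and 45.5. The interleukin-1 receptor genes Il1r1 and Il1rap had 4.63 and 158 against 181 and 1095 CPM. The chemokine Ccl2 stood at 20.5 against 133 CPM and the scavenging receptor Ackr3 at 55.5 against 4.61.

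Several growth factor genes stood far higher in adipose neurospheres. Fgf5 had 828 against 25.1 CPM (log2 ratio 5.16, interval 5.09 to 5.24), with 1.99 in M1 neurospheres, 20.1 in tdTomato-positive spheroid cells and 0.437 in fresh adipose cells. It was the 1 higher gene of the FGF list, in which 9 of 21 compared were lower (median -1.67), among them Fgf1, Fgf13, the receptors Fgfr2, Fgfr3 and Fgfr4 and the feedback inhibitors Spry4 and Spred1. Ntf3, a neurotrophin, had 1.04 against 9.62 CPM. Hbegf, an EGF receptor ligand, had 158 CPM with a log2 ratio of 3.96 and Egfr itself 7.45 against 1.06 CPM, whereas the ligand Areg had 0.162 against 8.44. Pdgfb had 30.1 CPM against 2 reads (log2 ratio 8.94, interval 8.20 to 13.11) and its receptor Pdgfrb 263 against 47.3 CPM. Pdgfb was not low in every bowel library, with 37.6 CPM in fresh cells and 13.4 in tdTomato-positive spheroid cells. Pgf, placental growth factor, had 250.1 against 14.1 CPM, and the receptor Met 123 CPM with a log2 ratio of 3.36, while its ligand Hgf had 1.07 and 1.55. In the GDNF family Ret had 1.30 against 274 CPM, while the GDNF coreceptor Gfra1 and Gdnf itself had 606 and 67.4 against 346 and 34.4 and passed in neither direction. Nrtn and Gfra2, a ligand and its coreceptor, were lower, which left 1 higher and 3 lower of 7. The endothelin receptors Ednrb and Ednra had log2 ratios of 0.08 and 0.94.

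**Figure D4:**
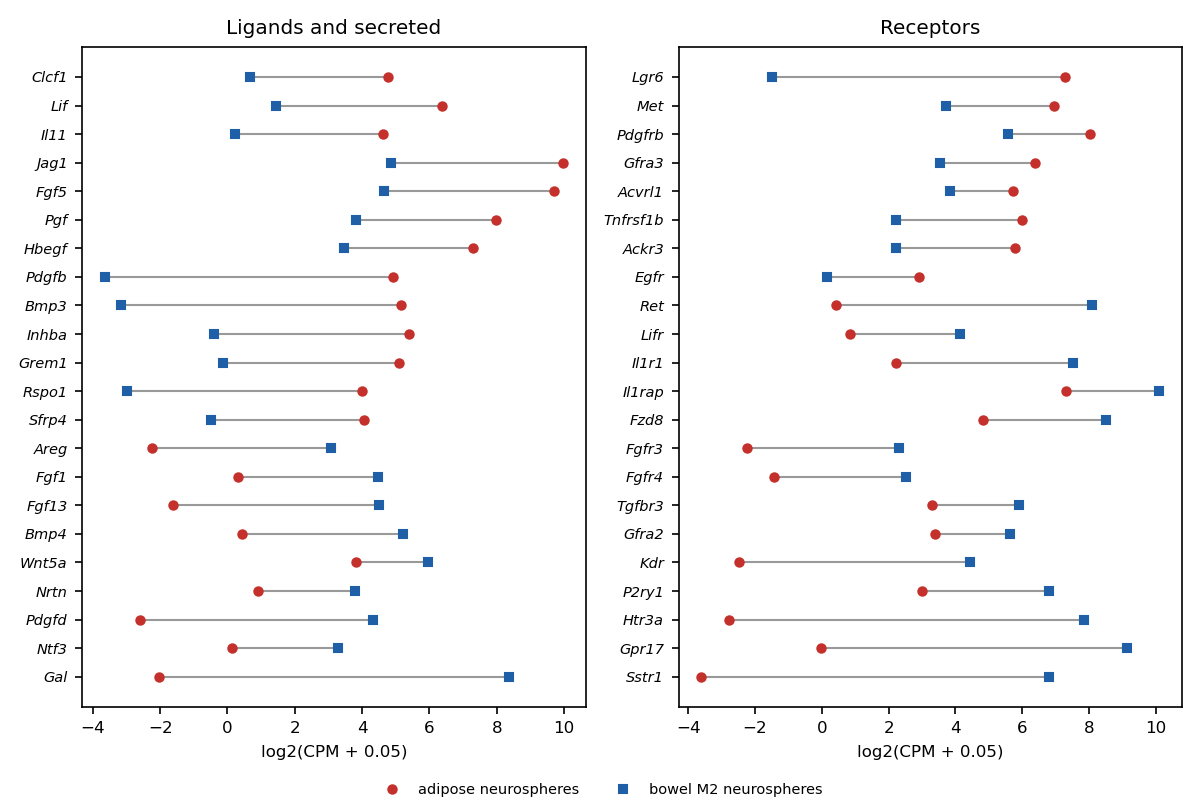
Levels as log2(CPM + 0.05) of selected ligands and secreted proteins (left) and receptors (right) in adipose (red circles) and bowel M2 (blue squares) neurospheres, joined by a line for each gene. Lif, Jag1 and Fgf5 lie to the right in adipose neurospheres, and Gal, Ret, Gpr17 and Sstr1 in bowel neurospheres.

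Wnt, BMP and Notch genes each held members that moved far in both directions. Lgr6, a receptor for R-spondins, had 156 against 0.306 CPM (log2 ratio 8.95, interval 8.48 to 9.82), and at most 3.01 CPM in the other 5 libraries. The R-spondin Rspo1 had 16.1 against 0.0766 CPM, the transcription factor Lef1 27.6 against 0.919 and the antagonist Sfrp1 82.5 against 15.1. The receptor Fzd8 had 28.1 against 361 CPM, Wnt5a 14.1 against 62.3, and the Wnt target Axin2 0.276 against 2.39. Of 37 Wnt genes compared, 9 were higher and 6 lower (median 0.29, and -0.77 against M1). Bmp3 had 35.7 against 0.0613 CPM, Inhba, an activin subunit, 42.1 against 0.704, and the antagonist Grem1 34.3 against 0.858. Smad6 and Smad7, inhibitors inside the cell, had 86.2 and 21.6 against 0.750 and 3.81 CPM. Bmp4 had 1.30 against 37.3 CPM and Ltbp1, which binds latent TGF-beta, 51.5 against 1069.8. The list held 11 higher and 7 lower of 39 (median 0.24, and -0.50 against M1). Among 18 Notch genes 4 were higher and 3 lower. The ligand Jag1 had 995 against 28.9 CPM, and Hey2, Mfng and Dll3 were lower, while the receptor Notch1 and the target Hes1 had 104 and 80.8 against 172 and 34.4.

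The remaining pathways were smaller. Of 10 Hedgehog genes compared none was higher and 4 were lower, Gli2, Hhip, Cdon and Gas1, the last with 9.28 against 90.7 CPM, while the target Ptch1 had 8.08 and 16.5. In the insulin-like growth factor system 3 of 14 were higher, all of them binding proteins, with Igfbp5 at 646 against 33.9 CPM, Igfbp7 at 930.4 against 187 and Igfbp6 at 3.77 against 0.138, and none was lower. The retinoic acid carriers went in opposite directions. Crabp2 had 106 against 0.184 CPM, and Crabp1 0.0974 against 13.7. The retinal reductase Dhrs3 had 161 against 5.38 CPM, and Aldh1a2, which makes retinoic acid, 1.83 against 21.1, in a list of 15 compared with 3 higher and 4 lower.

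Genes of bone and cartilage were higher in adipose neurospheres in 8 of 19 cases and lower in 2 (median 1.79). Sp7, the osterix factor of osteoblasts (chromosome 15, 102356603 to 102367035), had 21.8 CPM against 0 reads, at least 516-fold higher, and at most 0.449 CPM in the other 5 libraries. Acan, the cartilage proteoglycan aggrecan (chromosome 7, 79053226 to 79115099), had 57.8 CPM against 0 reads, at least 1366-fold. Col10a1, the collagen of hypertrophic cartilage, had 118 against 1.15 CPM, and bone sialoprotein Ibsp 8.12 against 0.0919. Runx3 had 8.39 against 0.153 CPM and the tendon factor Mkx 110.4 against 16.2, while Runx2, the early osteoblast factor, had 192 and 74.4. The 2 lower members were Col11a1, with 11.5 against 59.2 CPM, and Matn3, with 0.179 against 1.01. Col11a1 had 319 CPM in M1 neurospheres and 101 in tdTomato-positive spheroid cells. Sox9, Sox5 and Sox6 passed in neither direction, with log2 ratios of 0.87, 0.41 and -0.04. Spp1 was at 802 CPM in M1 neurospheres, 429.8 in tdTomato-positive and 18077 in tdTomato-negative spheroid cells. In those tdTomato-negative cells Sp7, Acan and Col10a1 had 0.371, 0.294 and 0.0464 CPM. The 33 listed genes also include Bglap, Ihh and Col2a1, which did not reach 1 CPM in either library.

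Matrix genes passed the rule in both directions. Collagens were higher in 10 of 30 cases and lower in 5 (median 0.66, and -0.72 against M1 and -0.55 against tdTomato-positive spheroid cells). The fibrillar Col1a2 and Col1a1 had 770.2 and 325 against 7.52 and 24.7 CPM, Col28a1, a collagen of peripheral glia, 296 against 12.8, and Col20a1 1.23 against 79.8. Of 74 matrix glycoproteins and proteoglycans 17 were higher and 24 lower (median -0.34). Smoc2 had 711 against 3.98 CPM, the galectin Lgals3 1270.1 against 119, and Sdc3, a syndecan of Schwann cells, 1383 against 285. Toward bowel stood Fbln1 (3.21 against 300.4 CPM), Fbln5 (2.27 against 82.5) and elastin, Eln (0.130 against 53.6). Proteases and inhibitors held 17 higher and 10 lower of 59 (median 0.53, and -0.13 against M1), with the collagenase Mmp13 at 49.1 against 0.322 CPM, Adamts5 at 273 against 22.8, and Mmp15 at 15.7 against 199.6. The laminin receptor Itga7 had 1478 against 92.4 CPM and Itgb8 113 against 8.84, while Itga4 had 1.66 against 39.0, among 24 integrins and laminins with 3 higher and 3 lower.

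Fibroblast markers were counted beside the matrix genes. Of 20 such genes 16 were compared, 6 higher and 2 lower (median 0.78, and -0.31 against M1), and their summed level was 9337 CPM in adipose and 3223 in bowel neurospheres. Postn alone gave 7036 and 1077 CPM of these sums. The other higher members were Col1a2, Col1a1, Pdgfrb, Thy1 and Mfap5, with log2 ratios of 6.79, 3.84, 2.60, 3.95 and 3.49. Fbln1 and Cd34 were the lower ones, with -6.41 and -3.21. Among those that passed in neither direction, Pdgfra, Dcn and Lum had 1.98, 11.3 and 3.17 CPM in adipose neurospheres, with log2 ratios of -0.17, 0.16 and -1.14. In the tdTomato-negative spheroid cells these 3 genes had 576, 7124 and 4110 CPM. Pi16 and Clec3b were under 0.2 CPM in both neurosphere libraries, and no gene of the list was at 0. In smooth muscle and pericyte genes 4 of 12 were higher and 1 lower, on sums of 736 against 601 CPM. The higher members were the pericyte genes Kcnj8, Abcc9 and Rgs5, with 10.8, 10.8 and 11.5 against 0.398, 1.27 and 1.06 CPM, and the contractile Tagln, with 41.1 against 6.55. Among those that passed in neither direction, the contractile Acta2 had 7.61 and 6.49 CPM. The pericyte genes Cspg4 and Mcam also passed in neither, with 103 and 504 CPM in adipose against 191 and 335 in bowel neurospheres. Among genes of interstitial cells of Cajal, 3 of 6 were higher, Ano1 and Prkcq among them, and Etv1 was lower, and Kit, which defines those cells, had 2.65 and 1.10 CPM. The part of other cells in these differences was not tested.

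Immune genes that passed the rule were mostly lower, as were all genes that did (8.69% of compared genes were lower and 5.33% higher). Of 35 complement and acute phase genes 24 were compared, 2 higher and 11 lower (median -0.67), with the complement regulator Cd59a at 44.1 against 359.5 CPM, and the endotoxin coreceptor Cd14 at 1.74 against 29.7. Interferon response genes held 8 lower and none higher of 25 (median -0.88), of which most reads went to Ifitm3 (41.3 against 227 CPM) and Irf1 (11.2 against 51.9). MHC and antigen processing genes held 1 lower member of 28, the immunoproteasome subunit Psmb9, and B2m, the class I light chain, had 907 and 822 CPM.

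Lists of cell state differed in how many members passed the rule, which 14.0% of all compared genes did. Of 39 cell cycle genes 1 was lower, the inhibitor Cdkn1c with 3.23 against 62.3 CPM, and Mki67 had 43.1 and 115. Of 31 oxidative phosphorylation genes 1 was higher, the coactivator Ppargc1a with 9.74 against 0.827 CPM. Cholesterol synthesis genes held 2 lower of 23, with Stard4 among them, yet all 23 had a log2 ratio below 0 (median -0.93). Hypoxia and glycolysis genes held 8 lower and 3 higher of 31 (median -0.46, and 0.26 against M1). Aldoc, an aldolase, had 0.0974 against 137 CPM, the kinase Pdk1 3.05 against 74.0 and the lactate carrier Slc16a3 3.39 against 41.6, whereas Pfkp and the collagen hydroxylase P4ha2 had 674 and 238 against 178 and 38.3. Immediate early genes held 2 higher, Fosl1 and Egr2, and 3 lower of 19, with Fos at 133 against 673 CPM. Heat shock and unfolded protein genes held 1 higher of 18, Chac1.

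Fresh cells of the same tissues, labelled Primary Wnt1-tdT cells, were also sequenced, and this comparison shares no library with that of the neurospheres. There 18.5% of 15585 compared genes passed the rule (7.1% higher, 11.4% lower in adipose). Of the 716 genes higher in adipose neurospheres 87 were also higher in fresh adipose cells, 109 were lower there, 391 passed in neither direction and 129 were below 1 CPM. Of the 1168 lower genes 392 were also lower and 89 higher in fresh adipose cells. The genes called alike made up 12.2% of the higher neurosphere list and 7.86% of the higher fresh list, and 33.6% and 22.1% of the lower lists. Pax3 kept its direction with 15.4 against 0.0347 CPM in fresh cells, and so did Lef1 with 18.5 against 0.364, Gal with 9.96 against 2079 and Htr3a with 0.0312 against 215. Smoc2 did not, with 88.2 against 961 CPM in fresh cells, nor did Rspo1 with 0.266 against 134 or Matn2 with 3927 against 645. Markers of other cells differed between the fresh libraries. Smooth muscle and pericyte genes summed to 1010.2 CPM in fresh adipose and 27829 in fresh bowel cells, mesothelial genes to 27.0 and 1590.3, macrophage genes to 2129 and 5257, and lymphocyte genes to 773 and 132. Their part in the fresh differences was not tested.

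**Figure D5:**
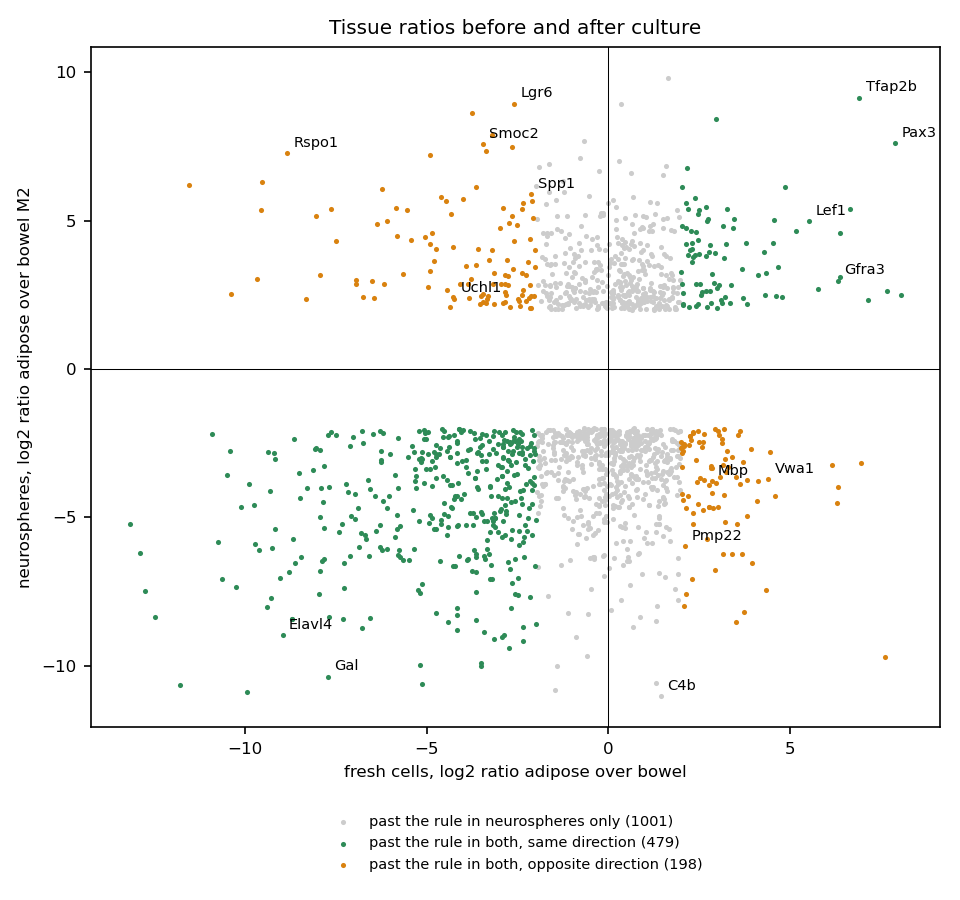
Log2 ratio of adipose over bowel in fresh cells (horizontal axis) and in neurospheres (vertical axis) for genes past the rule in neurospheres and compared in both, green where both passed in the same direction (479 genes), orange where in opposite directions (198) and grey where only neurospheres passed (1001). Gal and Elavl4 lie at the lower left, Tfap2b and Pax3 at the upper right, and Smoc2, Lgr6 and Rspo1 at the upper left.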

How the data were processed

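RNA sequencing of 7 libraries was used, as values in CPM that the authors deposited in 1 table, made with bcl2fastq 2.17, HISAT and featureCounts on mm10, per the submitters' processing notes (other versions, settings and the use of strand were not given in the sources used here). Libraries held 51885106 to 65301500 reads. CPM values were whole multiples of 1 read within a tolerance of 0.05 for 100% of values, so reads were recovered. Of 27179 gene identifiers 25275 received symbols from RefSeq (GRCm38). A count test could not be fitted, since 1 library per group leaves no residual spread, and with no molecular identifiers given, reads amplified from the same molecule cannot be told apart.

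Reads were scaled with TMM factors over 16461 genes and all 7 libraries (edgeR 4.0.16, R 4.3.3), and log2 ratios used a prior of 2 reads, so ratios of genes with few reads are drawn toward 0. Genes at 1 CPM in either library were kept, and a ratio counted as a call at 4-fold with a 95% exact conditional binomial interval beyond 2-fold. A fold against 0 reads was computed against 3 reads in that library. Named genes are the 15 highest and 15 lowest ratios among genes at 10 CPM or more in the higher library, the 10 called genes with the most reads each way, and members of 57 gene lists, of which 1631 of 1632 entries were found. Some of these genes are not reported here. The members and lists were chosen with earlier results of these data known. Alternatives were total reads, DESeq2 1.42.0 size factors, no filter, 5 CPM, a prior of 0.5, 2-fold and 8-fold rules, and, in place of M2, the M1 library or that of tdTomato-positive spheroid cells. Both of these share the adipose library with the main comparison. Scripts (Python 3.11.15 with pandas 2.3.3, numpy 2.4.6, matplotlib 3.10.9 and scipy 1.17.1) were tested on simulated data. Promoters came from RefSeq (GRCm38.p6).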

Additional observations from a re-analysis of the deposited data

Results flagged for a closer look

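Of the genes that passed the rule both in neurospheres and in fresh cells, 198 did so in opposite directions. Each comparison has 1 library per tissue and the difference was not tested. The examples are named or listed genes at 100 CPM or more in either neurosphere library. Those lower in adipose neurospheres but higher in fresh adipose cells include 2 myelin genes. Their log2 ratios in neurospheres were -5.98 for Pmp22 (2.12 in fresh cells) and -3.77 for Mbp (2.85). The membrane proteins Itm2a, Adam23 and Entpd2 had -4.29, -3.73 and -2.76 in neurospheres and 2.19, 2.64 and 2.07 in fresh cells. The matrix genes Vwa1, Matn2 and Col5a3 had -3.70, -2.64 and -2.50 against 4.41, 2.59 and 3.12, and the potassium channel Kcna6 had -2.20 against 2.62. Those higher in adipose neurospheres but lower in fresh adipose cells include the secreted and matrix genes Smoc2, Spp1 and Thbs2, with 7.59, 5.90 and 4.38 in neurospheres and -3.46, -2.12 and -2.17 in fresh cells. The receptors Lgr6, Met and Itga5 had 8.95, 3.36 and 2.48 against -2.59, -2.63 and -2.37. Fgf5 had 5.16 against -2.65, the tendon factor Mkx 2.88 against -4.08 and the hydrolase Uchl1 2.38 against -4.24. Genes under the 100 CPM limit also turned, among them Pth2r with -9.71 in neurospheres against 7.62 in fresh cells and Bmp3 with 8.65 against -3.75. Some of these genes were low in fresh cells. Lgr6, Fgf5, Mkx and Met had 0.250, 0.437, 0.250 and 1.59 CPM in fresh adipose against 1.63, 2.86, 4.63 and 9.88 in fresh bowel cells. Smooth muscle and pericyte genes, which summed to 1010.2 CPM in fresh adipose and 27829 in fresh bowel cells, stood at 736 and 601 in neurospheres, and the part of other cells in the fresh values was not tested.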

How the results depend on the processing

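With 1 library per tissue, no value has a replicate error, and leaving out a library was not possible. No paired analysis was possible because each group holds 1 library. The 716 higher genes became 1130 with no filter, 474 at 5 CPM, 1742 at 2-fold, 387 at 8-fold and 474 with tdTomato-positive spheroid cells in place of M2. The 1168 lower genes became 742 at 5 CPM, 2338 at 2-fold, 700 at 8-fold and 2001 with M1 neurospheres. Scaling by total reads, DESeq2 size factors and a prior of 0.5 kept both counts within 1.5 times. Adamts1 turned to -0.16 against spheroid cells, the 1 sign change among 49 named genes under these alternatives. Of 55 list medians 17 changed sign against M1 and 10 against spheroid cells, while total reads changed 1, DESeq2 size factors and the prior 0, no filter 2 and 5 CPM 4 of 51. The medians turned to -0.75 (5 CPM) and -2.11 (M1) for positional and limb factors and to -1.06 for Hox groups 6 to 13 (5 CPM). At 5 CPM only Prrx1 was left among the positional factors, and Hoxb6 and Hoxb7 among Hox groups 6 to 13. Lymphocyte and mast cell medians turned to -3.32 and -4.43 (M1), from 1.91 and 1.35 over 2 and 1 compared genes. Against M1, Cd4 joined the lymphocyte genes, and Cpa3, Mcpt4 and Tpsb2 the mast cell genes. The cause of these turns was not tested. A count of 0 allows up to 0.0487 CPM in adipose and 0.0459 CPM in bowel neurospheres.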
